A study of Mus musculus with 2 samples.

Results

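Processed pseudogenes with detectable RNA in the nucleoplasm of activated mouse macrophages were described from 2 total RNA sequencing libraries. Members were selected on RSEM TPM, the length-scaled level (transcripts per 1e6) in the first of 2 deposited quantifications. They are genes annotated only as processed_pseudogene or transcribed_processed_pseudogene, with at least 0.5 TPM in both libraries. Genes whose symbols name them as ribosomal protein pseudogenes by an Rpl, Rps or Rplp name with -ps (288 annotated, 33 of them at the minimum) were left out. The rule found 536 members among 9716 such annotated pseudogenes, or 5.52%, and among 55536 genes in all. Of the members, 530 carry the first label and 6 of 63 annotated genes carry the second. Because RSEM TPM chose the members, their RSEM levels are given as a description, without a test.

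Ribosomal RNA-depleted RNA came from the nucleoplasmic fraction of bone marrow-derived macrophages of C57BL/6J mice, phagocytes grown in culture from marrow. Both libraries had the same treatment: 100 ng/ml lipid A for 12 h, a washout of 12 h, and 100 ng/ml lipid A again for 90 min. Lipid A is the part of bacterial lipopolysaccharide that activates the receptor TLR4. Replicate 1 started from 1 µg of RNA, replicate 2 from 500 ng, and both carry the same donor entry, so their spread may be technical. With 1 group of 2 replicates and no control library, no comparison between conditions and no p-value was possible. In bulk RNA, fewer cells of a type and less RNA per cell cannot be told apart.

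A processed pseudogene is a copy of a spliced mRNA that the enzymes of LINE retrotransposons reverse-transcribed and inserted back into the genome. Such a copy has no introns and usually no promoter of its own, and most have lost the open reading frame of the coding gene they came from, called the parent here. When a copy lies inside an intron of another gene, called the host here, unspliced RNA of a same-strand host passes through it before splicing. Nuclear RNA is rich in unspliced transcripts. Because a copy resembles its parent, short reads can be hard to assign to one or the other.

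Gene counts summed to 29400104 in replicate 1 and 17789543 in replicate 2, of which members held 0.162% and 0.182%. All 7 macrophage markers checked lay above 1 TPM in both libraries (lowest mean 36.3 TPM, highest Lyz2 at 899). None of the 5 neutrophil markers did, nor any of the 3 markers each of B cells, T cells, stromal cells and erythroid cells, the highest being S100a9 at 0.57 TPM.

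The sequence of a member shows how far its reads can be told from those of its parent. The windows below, each of 120 bases, set 5 members beside the coding sequence of the parent, with the bases that differ in capitals. They run from a copy at 83.1% identity to an identical one. More diverged members are not shown: identity to the parent went down to 65.3%, with a first quartile of 82.2%. Member windows are from GENCODE M21 transcripts on mm10, and the parents are protein-coding transcripts of the same release. Gm47727, the member of highest level, is a copy of Rpl21 at 83.1% identity over 480 aligned positions, and its window (chr13:20827836-20827955, plus strand, in an intron of Aoah) differs from the first 120 coding bases of Rpl21 at 18 bases.
Gm47727: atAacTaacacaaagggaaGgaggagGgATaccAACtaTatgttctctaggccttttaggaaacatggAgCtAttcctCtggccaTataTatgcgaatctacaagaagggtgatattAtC
Rpl21: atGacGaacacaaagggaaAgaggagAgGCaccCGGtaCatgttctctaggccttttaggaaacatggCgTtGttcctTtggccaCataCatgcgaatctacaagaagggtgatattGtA
Hmgb1-ps5, a copy of Hmgb1 at 98.2% identity, differs at 2 bases in its window (chr3:95530487-95530606, plus strand, in an intron of Ctss).
Hmgb1-ps5: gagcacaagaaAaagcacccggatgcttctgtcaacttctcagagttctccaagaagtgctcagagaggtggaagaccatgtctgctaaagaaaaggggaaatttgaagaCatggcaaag
Hmgb1: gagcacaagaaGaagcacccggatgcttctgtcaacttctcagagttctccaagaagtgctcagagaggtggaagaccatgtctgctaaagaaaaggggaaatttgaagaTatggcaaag
Gm7666, a copy of Phb at 99.9% identity, differs at 1 base in its window (chr15:6654093-6654212, plus strand, in an exon of Fyb), the only difference in 816 aligned bases.
Gm7666: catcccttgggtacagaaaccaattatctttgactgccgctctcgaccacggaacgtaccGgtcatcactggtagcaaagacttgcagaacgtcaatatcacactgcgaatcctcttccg
Phb: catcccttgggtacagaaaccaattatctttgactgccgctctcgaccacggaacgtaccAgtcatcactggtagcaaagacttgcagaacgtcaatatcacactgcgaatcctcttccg
Gm6341 (chr7:101154856-101154975, minus strand, in an intron of Fchsd2) and Gm11518 (chr11:94037429-94037548, minus strand, in an intron of Spag9) are both copies of Rpl27. Gm6341 differs from it at 2 bases of the window, and Gm11518 at 0, here and over all 408 aligned bases.
Gm6341: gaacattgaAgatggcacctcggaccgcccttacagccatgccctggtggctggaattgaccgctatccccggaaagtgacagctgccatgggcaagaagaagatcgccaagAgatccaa
Gm11518: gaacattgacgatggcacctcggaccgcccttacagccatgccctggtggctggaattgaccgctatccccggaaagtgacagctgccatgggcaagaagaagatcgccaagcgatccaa
Rpl27: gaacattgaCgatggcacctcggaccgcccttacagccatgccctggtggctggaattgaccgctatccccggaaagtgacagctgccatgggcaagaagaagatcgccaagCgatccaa

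Most members lay inside introns of other genes. Introns held 427 of 536 members (79.7%), against 2433 of 9716 annotated pseudogenes (25.04%). Of the members, 165 lay in an intron of a gene on the same strand and 262 in an intron of a gene on the opposite strand. A further 12 overlapped an exon on the same strand and 16 an exon on the opposite strand. The remaining 81 (15.1%) overlapped no coding gene or long non-coding RNA gene, although 7003 annotated pseudogenes (72.1%) lie in such places. They are called outside other genes here, but overlaps with other pseudogenes, small RNA genes and unconfirmed (TEC) loci were not counted. Read the other way, 16.7% of the 986 annotated pseudogenes in same-strand introns were members, 18.1% of the 1447 in opposite-strand introns, and 1.16% of the 7003 outside other genes. The intronic members sat in 379 different hosts, and 411 of the 427 had a protein-coding host. Only Gnaq, Senp5, Tbc1d1 and Zfp943 each held 3.

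Membership followed the level of the host on either strand. Where the host averaged under 0.5 TPM, 7 of 614 same-strand intronic pseudogenes (1.14%) and 7 of 800 on the opposite strand (0.875%) were members. For hosts of 5 to 20 TPM the shares were 58.3% and 57.7%. For hosts of 50 TPM or more they were 80.0% (12 of 15) and 88.0% (22 of 25). The share thus rose with host level in every step on both strands. Whether reads were counted by strand is not given in the sources used here. Without strand, reads of an antisense pair cannot be told apart, and unspliced host RNA on the same strand has the same sequence as the pseudogene. How much of the members' signal came from host RNA was not tested.

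**Figure D1:**
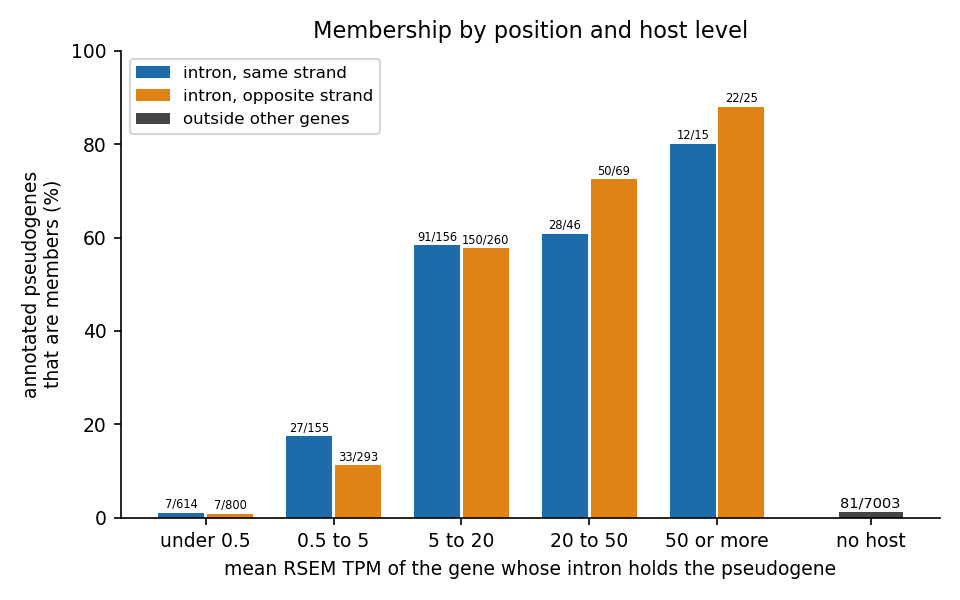
Percent of annotated processed pseudogenes that are members (vertical axis) by the mean RSEM TPM of the gene whose intron holds them (horizontal axis), for introns on the same strand (blue) and the opposite strand (orange), with pseudogenes outside other genes in grey and the numbers of members and annotated genes above each bar. The share rises from 1.14% and 0.875% for hosts under 0.5 TPM to 80.0% and 88.0% for hosts of 50 TPM or more, and is 1.16% outside other genes.

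Intronic members were usually lower than their hosts. By RSEM TPM, 378 of 427 lay below the host in both libraries and 28 above it in both. The median ratio of member to host TPM was 0.192 in replicate 1 and 0.246 in replicate 2 on the same strand, and 0.145 and 0.206 on the opposite strand. Across members, the levels of member and host had a Spearman correlation of 0.502 and 0.446 on the same strand (165 members) and 0.485 and 0.417 on the opposite strand (262 members). Both values of a pair come from the same libraries, and genes are not independent replicates.

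**Figure D2:**
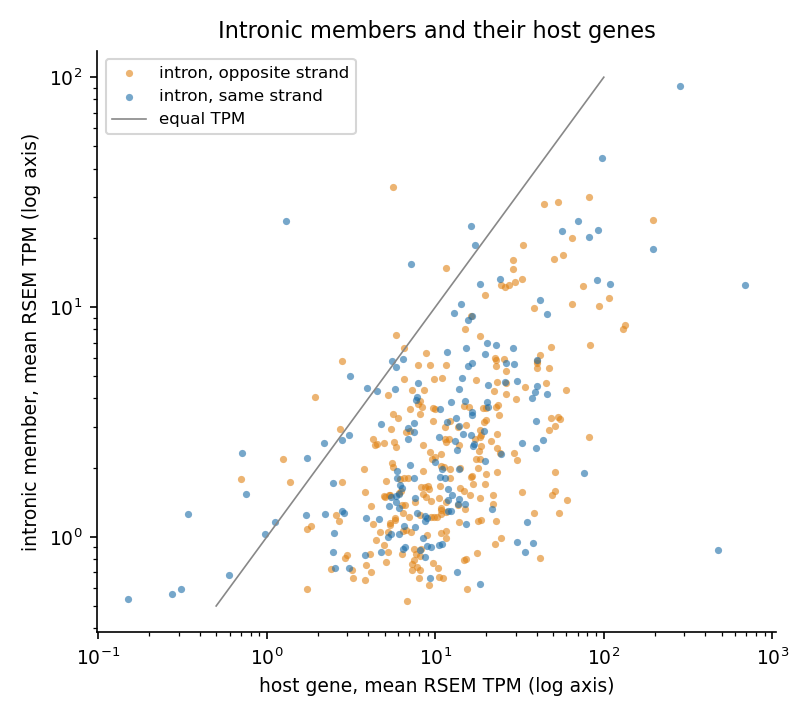
Mean RSEM TPM of each intronic member (vertical axis, log) against that of its host gene (horizontal axis, log), for same-strand (blue) and opposite-strand (orange) introns, with a line of equal TPM; 10 members whose host averaged under 0.05 TPM are not drawn. Most points lie below the line, and 28 members lie above their host in both libraries.

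Of the intronic members, 14 had a host that averaged under 0.5 TPM. The highest was Gm7536, in an intron of Naaladl2, at 9.42 TPM in replicate 1 and 17.2 in replicate 2, with Naaladl2 listed at 0 in both. Gm7536 is identical to the coding sequence of its parent Rpl27a where they align, and all of its 31-mers (the word length checked for shared sequence) also occur in transcripts of other genes. Ndufb4c, in an intron of Mroh5 (listed at 0), and Gm15899, in an intron of Cbfa2t3, were likewise identical to Ndufb4 and Actr3. These genes were picked out after their values were seen. The median share of such 31-mers was 77.0% over the 14, against 15.3% over all intronic members. Only 5 of the 14 shared at least 90%. The lowest share was 1.72%, in Gm7531 (3.44 and 2.51 TPM), whose host Fpr3 had 0.04 and 0 TPM.

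The members' levels were mostly low, with a few high ones. Median RSEM TPM was 1.55 in replicate 1 and 2.55 in replicate 2, and 347 members reached 1 TPM in both, 71 reached 5 TPM and 33 reached 10 TPM. The highest 54 members held 46.9% of the members' summed mean TPM. Of the 33 at 10 TPM or more, 23 were intronic and 6 lay outside other genes. The ranks of the members in the 2 libraries had a Spearman correlation of 0.771 over 536 genes.

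Of the 12 highest members, 7 lay in introns, 2 of them on the strand of the host. Gm47727 (chr13:20827836-20828316) had 75.8 TPM in replicate 1 and 108 in replicate 2. Its mean was 91.7 ± 22.5 TPM (SD, n = 2), against 282 and 288 TPM for its same-strand host Aoah, the enzyme that removes acyl chains from lipid A. It lay above its parent Rpl21, a large-subunit ribosomal protein gene at 12.3 and 15.6 TPM, in both libraries. 2610024D14Rik, a copy of Atp5l (a subunit of mitochondrial ATP synthase) in a same-strand intron of Peli1, had 53.3 and 35.7 TPM by RSEM. Peli1, a ubiquitin ligase of Toll-like receptor signalling, had 99.1 and 97.1 TPM. Here replicate 1 was the higher, unlike for Gm47727.

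On the opposite strand of a host lay Gm11805, Gm17147, Gm20612, Gm6341 and Gm18899. Gm11805, a copy of the HMG-box gene Hmgb3 in an intron of the Src-family kinase gene Lyn, had 20.6 TPM in replicate 1 and 39.8 in replicate 2, whereas Hmgb3 itself had 1.30 and 2.61. Gm17147, in an intron of the prostaglandin D synthase gene Hpgds, had 23.4 and 33.6 TPM, against 0.98 and 1.27 for its parent Nudt1, which hydrolyses oxidised nucleotides. Both copies lay above their parents in each library by kallisto too, where Hmgb3 had 2.86 and 9.85 TPM and Nudt1 had 2.44 and 12.8, and RSEM's posterior standard deviation of the count, the uncertainty from reads it had to split between genes, was 0 for both. Gm20612, a copy of Rpl17 in an intron of the interleukin-10 receptor gene Il10ra, had 25.9 and 30.3 TPM from 51 and 29 counts. Gm6341, the Rpl27 copy shown above, had 18.7 and 29.3 TPM in an intron of Fchsd2, a gene of endocytosis at 136 and 254 TPM. Gm18899, a copy of the translation factor gene Eif5 in an intron of Gphn, had 21.1 and 45.8 TPM and is the one of these that lay above its host, which had 6.39 and 4.89 TPM.

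The other 5 of the 12 highest members lay in no intron. Gm21370 (53.5 and 44.3 TPM) and Gm31544 (35.5 and 26.8 TPM) are copies of the phosphatase gene Ctdsp1, both on chromosome 13, and overlap exons of Gm36161 and Gm21188 on the other strand. Gm12250 (chr11:58187739-58189012), outside other genes, had 26.0 TPM in replicate 1 and 22.9 in replicate 2. It holds an open frame of 417 codons from a start to a stop codon, and its closest coding sequence was Gm5431 at 68.5% identity. Annotated here as a pseudogene, it is known under the name Irgb10 as an interferon-inducible GTPase gene. Gm19026, of 2 exons, had 29.2 and 23.1 TPM and aligned to Camsap1, a gene of microtubule minus ends, at 1.00 and 1.81 TPM. Tdgf1-ps1 had 35.0 and 15.0 TPM, against 2.63 and 0.38 for its parent Tdgf1. By kallisto the copy had 16.9 and 8.37 TPM and Tdgf1 had 8.93 and 5.65, a much smaller gap. By RSEM TPM all 5 were higher in replicate 1 than in replicate 2. By kallisto only Gm31544 (19.8 and 15.8 TPM) and Tdgf1-ps1 were. Gm21370 (28.4 and 34.1), Gm19026 (10.9 and 12.1) and Gm12250 (13.6 and 15.8) were higher in replicate 2 by kallisto.

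**Figure D3:**
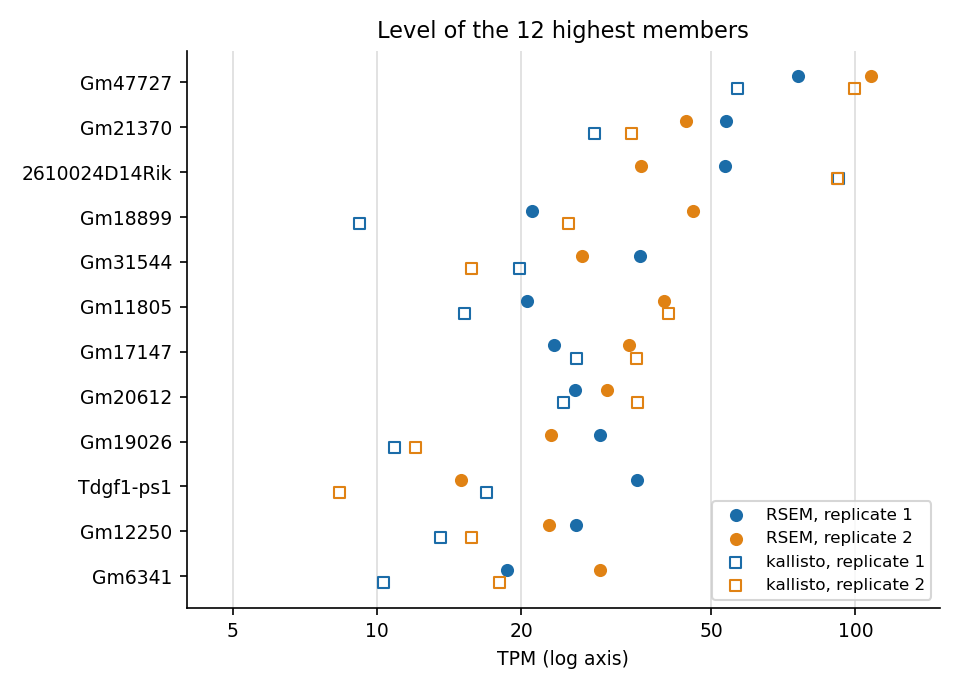
TPM (horizontal log axis) of the 12 members of highest mean RSEM TPM, by RSEM (filled circles) and kallisto (open squares) in replicate 1 (blue) and replicate 2 (orange). Gm47727 is highest by RSEM in both libraries at 75.8 and 108 TPM, and 2610024D14Rik and Gm17147 are the members with kallisto above RSEM in each library.

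The 6 members labelled transcribed all overlapped another gene on the same strand. Gm7666 lay in an exon of Fyb, an adaptor gene of leukocytes at 352 and 312 TPM, and had 24.2 TPM in replicate 1 and 15.4 in replicate 2. Its frame of 272 codons is as long as that of its parent Phb (prohibitin), which had 5.98 and 7.20 TPM. By kallisto the order was the other way, with 10.3 and 9.02 TPM for Gm7666 and 21.8 and 29.8 for Phb. Apc-ps1, in an exon of Tmem165, had 4.27 and 12.3 TPM. Gm29036, Gm13548, Gm12543 and Gm14057 had means from 1.27 to 4.04 TPM, and none of these 4 exceeded its host in either library.

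A coding parent could be aligned for 511 members, and 321 different genes were parents. Ribosomal protein genes were the parents of 157 members (30.7%), against 23.2% of annotated pseudogenes with a parent. The symbols of these copies are not Rpl, Rps or Rplp names with -ps, so the rule kept them. Median identity to the parent's coding sequence was 91.2% for members and 88.6% for annotated pseudogenes, and 74 members (14.5%) were at least 99% identical, against 5.42%. An open frame of at least 90% of the parent's length remained in 52 members (10.2%), against 6.75%. The parent lay above the member in both libraries for 393 members and below it for 84. Of these 84, 63 were intronic and 65 had a posterior standard deviation of 0 in both libraries. Over all 536 members, 427 (79.7%) were intronic and 370 (69.0%) had a posterior standard deviation of 0 in both. Of the 9097 annotated pseudogenes with a parent, 152 had the parent below the copy in both libraries, but members were selected on level. Across members, parent and copy levels had a Spearman correlation of -0.04 in each library (511 members). A count of 44 members had several parents within 2% of the best alignment score, so the parent named is 1 of these.

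Families of copies differed in how many were detected. The ribosomal protein gene Rpl7a had the most members, 17 of 167 annotated copies, of which 16 were intronic. Gapdh, the glycolytic enzyme gene, had 15 of 237 (6.33%), and the chromatin protein gene Hmgb1 had 10 of 152 (6.58%), all 10 intronic. Hnrnpa3, which encodes an RNA-binding protein of the nucleus, had 10 of 35 copies (28.6%), all intronic, with means from 0.73 to 12.6 TPM. In that family the summed level was 21.1 TPM in replicate 1 and 61.9 in replicate 2, against 81.3 and 57.5 TPM for Hnrnpa3 itself. By kallisto Hnrnpa3 had 19.2 and 24.95 TPM, higher in replicate 2, so the direction for the parent depends on the quantification. Smaller families had shares like that of Hnrnpa3 or higher: Ndufb4 and Pabpc1 each had 3 of 8, and Rps15a 5 of 18. Rpl17 had 11 of 94, Rpl21 10 of 114 and Rps2 10 of 129. Ppia, the cyclophilin A gene, had 6 of 81, and the histone gene H3f3a 5 of 68. Over a list of 57 coding genes known for many copies, 70 of 1199 copies (5.84%) were members, near the 5.52% of all annotated pseudogenes. Actb, at 909 and 935 TPM, had 0 members among 28 copies.

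Of the members, 28 have -ps symbols, 18 of them intronic, with means from 0.565 to 24.99 TPM. After Tdgf1-ps1 came Hmgb1-ps5, in an intron of the cathepsin S gene Ctss, at 9.08 TPM in replicate 1 and 15.8 in replicate 2. Ctss had 727 and 658 TPM, so this member was far below its host. Apc-ps1, Morf4l1-ps1, Ube2n-ps1, Hmgb1-ps8, Dnmt3l-ps1 and Bambi-ps1 followed with means from 5.67 to 8.31 TPM. Bambi-ps1, outside other genes, had 6.57 and 4.77 TPM while Bambi, a decoy receptor gene of TGF-beta signalling, had 0.05 and 0.07.

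The second quantification, kallisto, differed from RSEM in ways that went with shared sequence. On the deposited scale, kallisto TPM lay more than 2-fold above RSEM TPM in both libraries for 22 members (4.10%), against 2.52% of all genes at the minimum. It lay more than 2-fold below for 47 (8.77%), against 2.53%. The median log2 ratio of kallisto over RSEM was -0.55 in replicate 1 and -0.36 in replicate 2 for members, and -0.76 and -0.35 for all 12176 genes at the minimum. With both scales recomputed over only the coding genes and lncRNAs (long non-coding RNAs), which moved the median of all genes to 0.06 and 0.16, the split turned: 74 members lay above (13.8%, against 8.65% of all genes) and 25 below (4.66%, against 1.03%). The direction of the members' difference therefore depends on the scale. Because one side of each ratio also chose the members, none of these counts is a test.

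The order by shared sequence was the same on both scales. Members that share under 10% of their 31-mers with transcripts of other genes (206) had deposited-scale medians of -0.19 and -0.12, above those of all genes. Members that share 90% or more (77) had medians of -1.19 and -1.09, below those of all genes. Of the 47 members below, 31 were in the latter group and 1 in the former. RSEM's own uncertainty followed the same order, since its posterior standard deviation passed 10% of the mean count in 0 of the 206 and in 62 of the 77. On the recomputed scale the medians were 0.63 and 0.39 for the first group and -0.48 and -0.58 for the last.

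**Figure D4:**
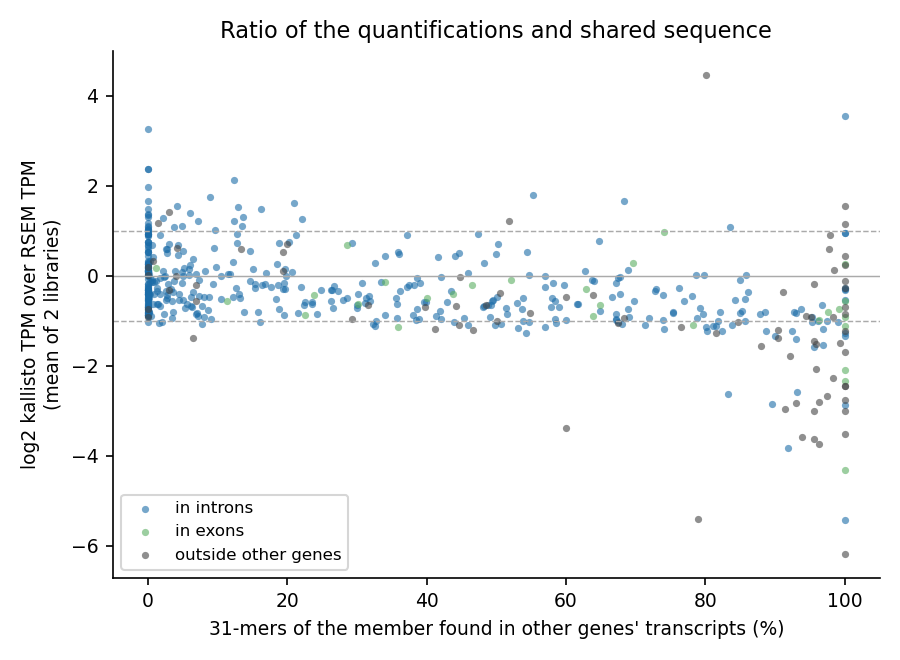
Mean log2 ratio of kallisto TPM over RSEM TPM on the deposited scale (vertical axis) against the percent of a member's 31-mers found in transcripts of other genes (horizontal axis), for members in introns (blue), in exons (green) and outside other genes (grey), with dashed lines at a 2-fold difference. Of the 47 members more than 2-fold below in both libraries, 31 share 90% or more.

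Of the 6 lowest ratios, 5 belonged to copies at least 99% identical to their parents. Gm11518, the Rpl27 copy without a difference, had 4.62 TPM in replicate 1 and 4.71 in replicate 2 by RSEM, and 0.0234 and 0 by kallisto. Its RSEM counts of 43.1 and 23.4 had posterior standard deviations of 27.2 and 13.8, so the first quantification also placed them loosely. Gm10443 (Rps28), Gm7964 (Hnrnpk), Gm13509 (Ap2m1) and Gm12715 (Actg1), with the parents in brackets, had 0.94 to 20.2 TPM by RSEM and at most 0.106 by kallisto in any library. Gm48145, a copy of Rpl35a at 82.5% identity, had all of its 31-mers in other genes' transcripts, overlapped an exon of Ccar1 and was listed at 0 by kallisto. By kallisto, 38 members lay under 0.5 TPM in both libraries, 7 of them listed at 0 in both.

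Most of the highest ratios came from few counts. Gm48368 had 0.71 and 0.73 TPM by RSEM and 10.9 and 29.8 by kallisto, with no coding parent aligned. Gm13574, in an intron of the chromatin gene Baz2b, had 1.99 and 4.41 TPM by RSEM and 20.5 and 42.3 by kallisto, although none of its 31-mers occur elsewhere. Both were higher by kallisto in each library. Gm20689, Gm29487, Gm42883 and Gm4432 had between 1.71 and 12 RSEM counts in each library.

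Choosing the genes by kallisto instead gave 767 pseudogenes at 0.5 TPM in both libraries. Of these, 427 were members, which is 79.7% of the members and 55.7% of the kallisto set. The share in introns was 62.6% by kallisto, below the 79.7% by RSEM and above the 25.04% of annotated pseudogenes. Of the 340 genes found by kallisto alone, 123 were intronic and 210 lay outside other genes, and RSEM listed 196 genes of the kallisto set at 0 in both libraries.

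The 81 members outside other genes were closer copies than the intronic ones. Their median identity to the parent was 98.5% against 89.6%, and their median share of 31-mers found elsewhere was 87.9% against 15.3%. The gap was absent over all annotated pseudogenes in these places. There the median identity was 88.3% outside and 89.5% in introns, and the median share was 13.6% in each. On the deposited scale, 26 of the 81 members outside other genes lay more than 2-fold below RSEM by kallisto in both libraries. So did 18 of the 427 intronic members and 2.53% of all genes at the minimum. By kallisto, 20 of the 81 lay under 0.5 TPM in both libraries, against 38 of all 536 members. RSEM's posterior standard deviation was 0 in both libraries for 26 of the 81 (32.1%) and for 338 of the 427 intronic members (79.2%). An expressed coding gene ended within 5000 bases upstream on the same strand for 6 of the 81. Whether reads of such a neighbour or of the parent were counted for these members was not tested.

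Between the replicates, members were more often higher in replicate 2 by RSEM counts. After scaling by TMM, 407 members had a mean count of at least 10 and 62 of these (15.2%) had a log2 ratio of replicate 2 over replicate 1 above 1, against 7.52% of 14831 genes tested. Below -1 were 25 members (6.14%), against 5.85%. The median log2 ratio was 0.26 for members and 0.01 for all genes. With kallisto estimated counts the excess was absent: 44 of 497 members (8.85%) lay above 1 against 10.9% of all genes, 48 (9.66%) lay below -1 against 5.93%, and the medians were 0.06 and 0.04. Each replicate is 1 library, so the ratio has no replicate of its own and no p-value.

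The shift by RSEM counts lay in the intronic members. Their median log2 ratio was 0.36 on the same strand and 0.32 on the opposite strand. Of 320 intronic members, 217 (67.8%) lay above 0, against 50.7% of all genes tested. The hosts of the intronic members had medians of -0.14 and -0.10. The member's ratio lay above that of its own host in 89 of 127 same-strand pairs and 138 of 184 opposite-strand pairs. Members outside other genes had a median of -0.14, with 28 of 61 (45.9%) above 0. With kallisto counts the medians were 0.11 for intronic members and -0.45 for those outside, so the order held and the sizes moved. By these counts 59.9% of intronic members and 27.9% of those outside lay above 0, against 52.3% of all genes. The libraries also differ in starting RNA and depth, whose part in this was not tested.

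**Figure D5:**
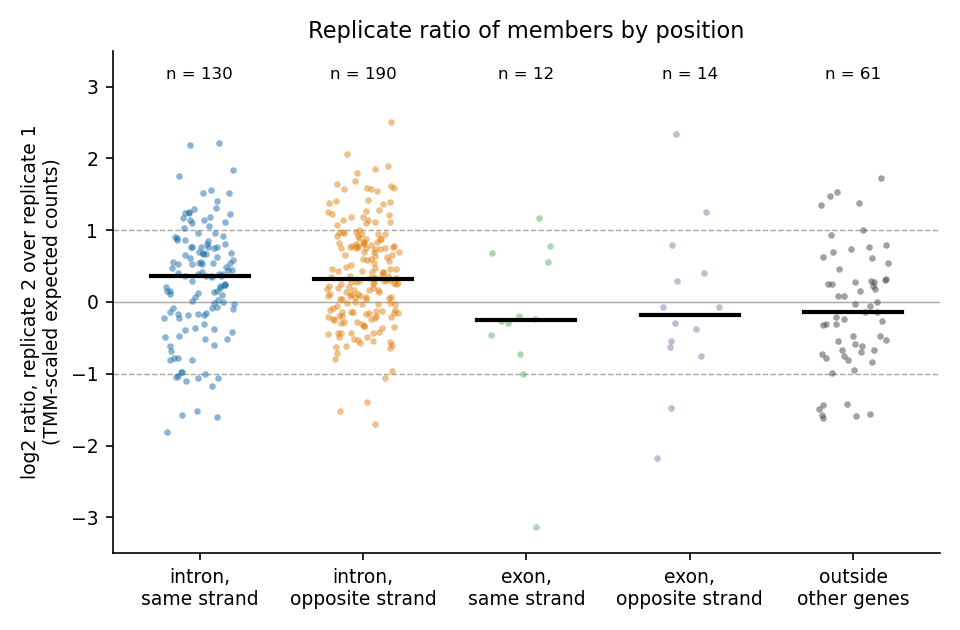
Log2 ratio of replicate 2 over replicate 1 from TMM-scaled RSEM expected counts (vertical axis) for the 407 members with a mean count of at least 10, by position (horizontal axis); each point is a member, black bars are medians and dashed lines mark a 2-fold difference. Medians are 0.36 and 0.32 in introns and -0.14 outside other genes.

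The members with the largest replicate ratios were Gm13369, Gm9775, Ube2n-ps1 and Gm5417. Gm13369, in an intron of the phospholipase gene Pnpla7, had 22 counts in replicate 1 and 87.3 in replicate 2, a log2 ratio of 2.51 (95% counting interval 1.85 to 3.29, exact binomial), while Pnpla7 had -0.72. Ube2n-ps1 lies in an intron of the circadian gene Clock, whose own log2 ratio was 0.71. Where aligned, Ube2n-ps1 is identical to its parent Ube2n, a ubiquitin-conjugating enzyme gene. It had 1.76 and 11.0 TPM, with posterior standard deviations of 8.38 and 8.89 on 20.5 and 68.3 counts, so how its reads were split was uncertain in both libraries.

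The 4 lowest ratios were those of Gm43802, Gm12188, Gm13570 and Gm19244. Gm43802, in an exon of the interferon-inducible guanylate-binding protein gene Gbp7, had 211 counts in replicate 1 and 15.5 in replicate 2, a log2 ratio of -3.13 (interval -4.00 to -2.43). Gm12188, in an exon of the interferon-inducible GTPase gene Ifi47, had -2.17 (-3.27 to -1.29), and Gm19244, in an intron of the ubiquitin ligase gene Herc6, had -1.70 (-3.32 to -0.48). These hosts had smaller ratios of the same sign, -0.72 for Gbp7, -0.68 for Ifi47 and -0.53 for Herc6. Baz2b, the host of Gm13570, was almost unchanged at -0.02. All of Gm43802's 31-mers occur in other genes' transcripts. By kallisto TPM, Gm43802 had 7.15 in replicate 1 and 3.15 in replicate 2, and Gm12188 had 17.6 and 10.6, whereas Gm13570, in an intron of Baz2b, had 3.54 and 4.87. Chosen as extremes, these values describe the spread between the 2 libraries.

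Counts behind the members were small, with a median mean count of 22 and 129 members under 10. RSEM's credibility interval of TPM reached under 0.5 in a library for 208 of 536 members. Just inside the minimum were Gm14388 (0.50 and 0.75 TPM), Gm37246 (0.50 and 1.88) and Gm7027 (0.50 and 0.77). Just outside it were Gm12793 (0.50 and 0.49), Gm12934 (0.49 and 0.61) and Gm18290 (0.49 and 0.62). Their counts ran from 1 (Gm12793, replicate 2) to 30 (Gm37246, replicate 2) in a library, and the lower of the 2 TPM values was 0.50 in 7 genes and 0.49 in 6.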

How the data were processed

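Both libraries hold nucleoplasmic RNA of 1 group. The authors' deposited tables give expected counts and TPM per gene (RSEM's column names) and estimated counts and TPM per transcript (kallisto's), on mm10 with GENCODE M21, per the file headers. The deposited TPM is scaled over all features. No source used here gives the aligner, versions or strand setting. Kallisto values were summed per gene, and 86 genes had none.

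Expected counts were rounded. Log2 ratios of replicate 2 over replicate 1 used TMM factors (edgeR 4.0.16, 0.944 and 1.06) where the mean count reached 10, with a prior count of 0.5. Ratios of kallisto over RSEM used a pseudocount of 0.1 TPM, which understates changes of low genes. A difference was a log2 ratio beyond 1. A gene at 0 may still hold up to 3 counts (0.102 and 0.169 CPM). Counting intervals are exact binomial (Clopper-Pearson) and cover counting error only. Positions came from the GENCODE M21 annotation, with pseudogenes, small RNA genes and TEC loci left out of the genes compared. Parents are the best plus-strand BLAST 2.17.0 hit (e-value 1e-10) among coding sequences of genes that do not overlap the member. Shared 31-mers were sought on both strands in transcripts of all other genes.

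Members named are the 12 with the most mean TPM, the 6 highest and 6 lowest ratios of the quantifications, the 4 highest and 4 lowest replicate ratios, the transcribed ones, 3 each side of the minimum, and the 8 highest with -ps symbols. Members and lists were chosen with earlier results of these data known. The alternatives tried were other minimums, pseudocounts, scalings, prior counts, the other quantification and single libraries.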

Additional observations from a re-analysis of the deposited data

How the results depend on the processing

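Of 46 alternatives, 29 kept the reported value within a limit, 14 moved it and 3 reversed its sign. For a count or percent the limit was a factor of 1.5 either way. For a median of the quantifications it was 0.137, the SD of the 2 library medians. For a median of the replicates it was a fixed step of 0.1, not a spread. Leaving out 1 library cannot shift the quantification median by more than that SD, so those alternatives show nothing about its stability. A count within these limits can still split differently: rescaled TPM gave 74 members above and 25 below (22 and 47 as reported), and kallisto counts gave 44 and 48 for the replicates (62 and 25). The share of members in introns stayed between 62.6% and 93.2% under every alternative, all of which were added after seeing the data. No share could pass its upper limit, so only a fall could count as moved. All 7 of its alternatives are among the 29. A minimum of 1 TPM left 347 members, and keeping 1 library gave 632 to 774. The count of members more than 2-fold apart by quantification, 69 as reported, was 30 with a pseudocount of 1 TPM, 111 with CPM, 45 with a mean count of at least 10 and 127 to 157 with 1 library left out. The median log2 ratio of kallisto over RSEM, -0.46 over both libraries, was -0.28 with a pseudocount of 1 TPM. It turned to 0.19 with TPM rescaled over coding genes and long non-coding RNAs and to 0.37 with CPM. The members' median less that of all genes was 0.21 and -0.01 in the 2 libraries as deposited, 0.19 and -0.02 rescaled, and 0.40 and 0.30 with CPM. The members' own median, without that subtraction, was -0.55 to -0.36 with 1 library left out.

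The count of members with a replicate ratio beyond 1, 87 as reported, was 141 from deposited TPM. Their median ratio moved from 0.26 to 0.42 with library totals alone, 0.57 with deposited TPM and 0.061 with kallisto counts. With library totals the intronic median was 0.51 and that outside other genes turned to 0.024, while the median of all genes moved to 0.18. With kallisto counts these medians were 0.11 and -0.45, and the cause was not tested. No paired analysis was possible because there is 1 group. Low counts limit the result for the 129 members under a mean count of 10.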
